A study of Mus musculus with 6 samples.

Results

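The genes described are 35 genes of muscle contraction: 22 forms and regulators typical of smooth muscle, 6 cytoskeletal forms that smooth muscle shares with most cells, and 7 forms of striated (skeletal and cardiac) muscle. They were taken by symbol from a list of contractile genes, and all 35 were found among the 55487 gene identifiers of the deposited table. RNA came from the terminal ileum, the end of the small intestine, of C57BL/6 mice aged 9 days, with 3 libraries labelled NEC and 3 labelled control. NEC is necrotizing enterocolitis, a bowel disease of newborns. The model combined gavage of hyperosmolar formula, hypoxia over 4 days (3 daily exposures of 10 min at 5% O2) and lipopolysaccharide by mouth at 4 mg/kg/day on postnatal days 6 and 7. The control samples carry the same treatment text, so how they were fed and handled is not stated, and pooling of animals is not mentioned. The labels do not state that each library is a separate mouse, so tests here read only the spread among libraries, which may be technical.

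The wall of the ileum holds circular and longitudinal layers of smooth muscle, a thin sheet under the mucosa, strands in the villi and the coats of blood vessels. A smooth muscle cell contracts when calcium, through calmodulin, activates myosin light-chain kinase, which phosphorylates the regulatory light chain and lets myosin pull on actin. Thin-filament proteins such as calponin and caldesmon restrain this, intermediate filaments and dense plaques pass the force on, and cyclic GMP signalling and potassium channels relax the cell. The coactivator myocardin, together with serum response factor (SRF), switches on many of these genes through DNA elements named CArG boxes. Striated muscle uses other actins and myosins, and troponin in place of calponin and caldesmon.

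The unit was taken to be FPKM, in which fragments are divided by transcript length and by library size, so levels can be compared between genes. The steps of the lowest values correspond to 15.2 to 18.7 M fragments per library. NEC 1 stands apart: the small RNA gene Rn7s1 holds 42.7% of its summed FPKM against 27.3% to 32.2% in the other libraries. This is not a share of fragments, since the division by length gives short genes more weight. In NEC 1, 13461 genes reach 1 FPKM, against 14541 to 16702 in the others. The median tested gene lay at 69.7%, 81.3% and 84.4% of its control mean in NEC 1, 2 and 3. After a common scaling to the trimmed mean of ratios (TMM), these medians were 101%, 99.1% and 99.2%. Results are therefore given on the deposited scale, after TMM scaling and without NEC 1 wherever these differ.

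Smooth muscle genes were lowest in NEC 1. Each of the 21 smooth muscle members that could be tested (mean of at least 1 FPKM) had its lowest value there, which also held for 56.0% of all tested genes, and 19 of the 21 lay below 50% of their control mean, against 28.3% of all tested genes. In NEC 2 only 1 member, Myocd, lay below 50% (14.9% of all tested genes), and in NEC 3 it was 0 (9.45%). The median member stood at 22.8% of its control mean in NEC 1, 78.2% in NEC 2 and 82.4% in NEC 3. After TMM scaling these medians were 33.1%, 95.4% and 97.0%. So relative to the typical gene, the middle of the group was far below control in NEC 1 and within 5 percentage points of it in NEC 2 and 3. In these bulk samples, fewer muscle cells and less of these RNAs per cell cannot be told apart.

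In 16 of the 21 tested smooth muscle members all NEC libraries lay below all controls, which was so for 47.3% of all tested genes. After TMM scaling it was 6 of 21, against 26.1% of all tested genes, a share close to that background. With all 6 libraries, 2 of the 21 passed as lower and 0 as higher (limma, Benjamini-Hochberg adjusted p under 0.05), against 30.6% of all tested genes lower and 7.69% higher. At an unadjusted p under 0.05 there were 7. The median log2 change was -0.90, beside -0.26 over all tested genes. Without NEC 1, 13 of 22 tested passed as lower and 0 as higher, against 33.5% and 9.77% of genes, with a median of -0.30 beside -0.21. Without NEC 1 and with TMM scaling, 2 were lower and 1 higher, against 15.8% and 18.8% of genes, and the median was -0.09. The sample that stood apart and the scale thus both set how many members passed.

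**Figure D1:**
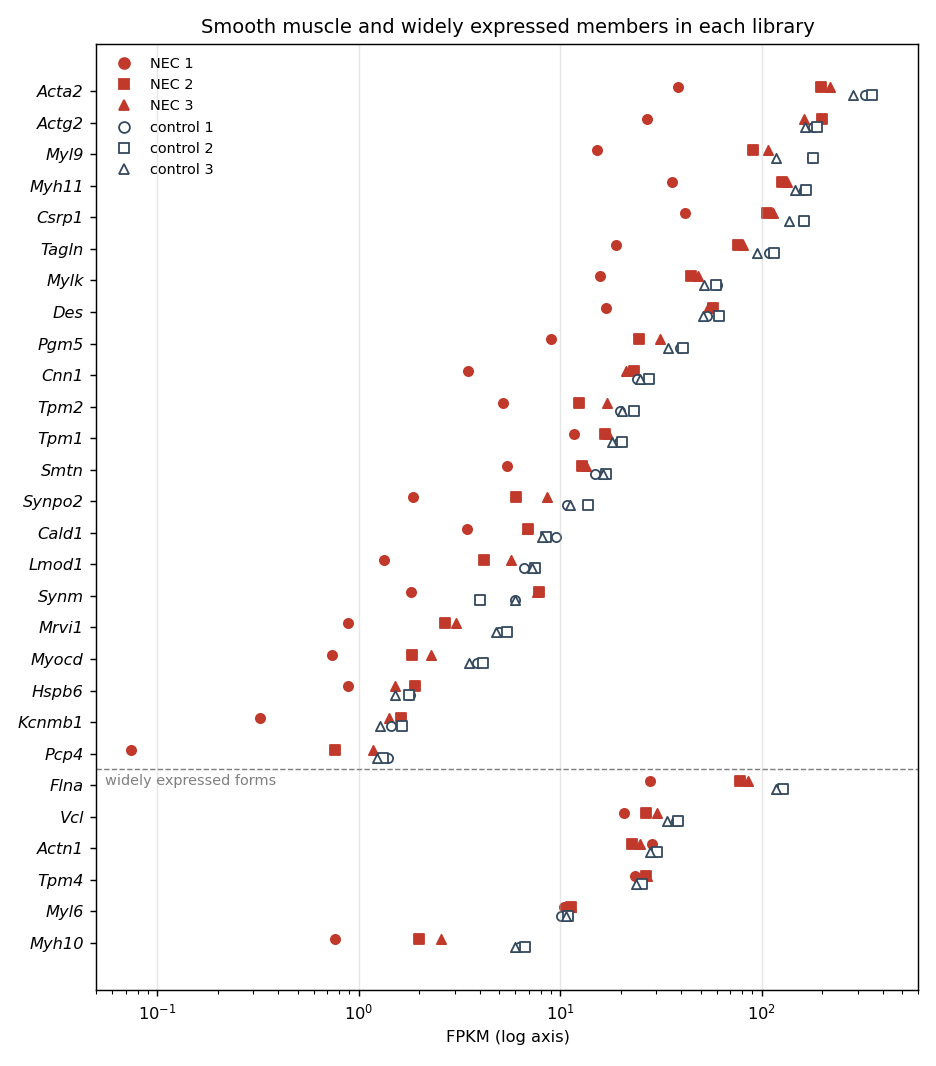
FPKM of the 22 smooth muscle members and, below the dashed line, the 6 widely expressed members, on a log axis. Filled red symbols are the 3 NEC libraries and open symbols the 3 controls. NEC 1, the filled circle, is lowest in each of the 22 smooth muscle members, while NEC 2 and 3 sit beside or just below the controls in most.

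Actins form the thin filaments. Acta2, the alpha actin of smooth muscle (GRCm38 chromosome 19, 34241090 to 34255590), was the most abundant member, at 328, 355 and 285 FPKM in control 1, 2 and 3. It was at 38.4, 197 and 219 FPKM in NEC 1, 2 and 3. All NEC libraries lay below the controls, before and after TMM scaling, but with all 6 libraries its log2 change of -1.43 (SE 0.63, limma adjusted p = 0.112) did not pass. Without NEC 1 the log2 change was -0.63 (SE 0.12, limma adjusted p = 0.0118), and with TMM scaling as well the adjusted p was 0.0507.

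Actg2, the gamma actin of visceral smooth muscle (chromosome 6, 83512905 to 83536265), differed from Acta2 in NEC 2 and 3. It was at 27.0, 198 and 163 FPKM in NEC 1, 2 and 3 and at 179, 187 and 164 in the controls. NEC 2 had the highest value of all 6 libraries and NEC 1 the lowest, so the groups overlapped, and the log2 change without NEC 1 was 0.02 (SE 0.11, limma adjusted p = 0.88). The ratio of Actg2 to Acta2 was 0.702, 1.01 and 0.742 in NEC 1, 2 and 3 and 0.547, 0.528 and 0.577 in the controls. A scaling of a whole library cancels in such a ratio, and each NEC library lay above each control. An exact permutation test of 3 against 3 libraries (two-sided) gave p = 0.1, the smallest it allows, and 0.117 adjusted over the 7 ratios computed.

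Myosin moves the actin filaments. Myh11, the heavy chain of smooth muscle myosin, was at 36.02, 126 and 133 FPKM in NEC 1, 2 and 3 and at 161, 166 and 147 in the controls. All NEC values were below the controls, NEC 2 and 3 only slightly, and after TMM scaling the groups overlapped. Myl9, the regulatory light chain that the kinase phosphorylates (chromosome 2, 156775420 to 156781658), was at 15.2, 90.2 and 107 FPKM in NEC and at 179, 180.3 and 117 in the controls. It had the lowest share of its control mean in NEC 1 of the tested smooth muscle members, 9.57%, and control 3 stood close to NEC 3. Mylk, the myosin light-chain kinase, was at 15.7, 44.6 and 48.3 against 60.0, 59.1 and 52.0 FPKM.

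None of these 3 myosin genes passed with all libraries (limma adjusted p = 0.175, 0.123 and 0.155 for Myh11, Myl9 and Mylk). Without NEC 1, Myh11 and Mylk passed as lower, with log2 changes of -0.28 and -0.29 (limma adjusted p = 0.0374 and 0.0458), and Myl9 did not (0.0546). With TMM scaling as well none of the 3 passed, and for Myh11 and Mylk the adjusted p was 0.873 and 0.832.

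The thin-filament regulators showed the same picture with differences of degree. Tagln, which encodes transgelin, an actin-bundling protein and early smooth muscle marker, was at 19.0, 75.9 and 80.8 FPKM in NEC 1, 2 and 3 and at 109, 116 and 94.8 in the controls. Its groups stayed apart after TMM scaling. Cnn1, calponin 1, which restrains the myosin motor, was at 3.50, 23.1 and 21.2 against 24.0, 27.7 and 24.8 FPKM, so NEC 2 and 3 lay just below the lowest control. Caldesmon (Cald1) and smoothelin (Smtn, found in contractile smooth muscle) stood at 39.7% and 33.8% of their control means in NEC 1, and at 78.5% to 83.4% in NEC 2 and 3.

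Tpm1 and Tpm2 encode tropomyosins, which lie along the actin filament, and Lmod1 encodes leiomodin 1, which starts new filaments. Tpm1 was the least affected in NEC 1 of the tested smooth muscle members, at 60.4% of its control mean, and it is also made outside muscle. Tpm2 was at 5.21, 12.4 and 17.1 FPKM in NEC 1, 2 and 3 and at 19.7, 23.2 and 20.3 in the controls. Lmod1 was at 1.33, 4.17 and 5.69 against 6.58, 7.47 and 7.22 FPKM. In both genes NEC 2 lay between NEC 1 and NEC 3. Without NEC 1 both passed as lower (limma adjusted p = 0.0406 and 0.0356), and neither did so with TMM scaling as well (0.204 and 0.186).

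Intermediate filament genes were not below the controls in NEC 2 and 3. Des, which encodes desmin, the muscle intermediate filament, was at 17.0, 57.7 and 54.0 FPKM in NEC 1, 2 and 3 and at 53.8, 61.3 and 51.0 in the controls. NEC 2 and 3 lay inside the control range. Synm, which encodes synemin, a partner of desmin, was at 1.82, 7.85 and 7.66 against 5.96, 4.00 and 5.97 FPKM. NEC 2 and 3 were above all controls while NEC 1 was below them, and Synm passed as higher only without NEC 1 and with TMM scaling (log2 change 0.72, limma adjusted p = 0.0253), a direction opposite to the -0.06 of all 6 libraries on the deposited scale. Exons of Synm and of Ttc23 overlap on opposite strands, and the strand setting of the counting is not given, so their reads may be mixed.

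Dense bodies and plaques anchor the filaments. Csrp1, a LIM protein of the actin cytoskeleton, was at 41.8, 106 and 113 FPKM in NEC 1, 2 and 3 and at 159.5, 162 and 137 in the controls. Pgm5 (aciculin), a plaque protein, was at 8.97, 24.6 and 31.4 against 39.1, 40.6 and 34.4 FPKM. Synpo2, which encodes the Z-disc and dense-body protein myopodin, was at 1.86, 6.06 and 8.60 against 10.8, 13.8 and 11.1 FPKM. All 3 genes lay below the controls in each NEC library, and for Csrp1 and Synpo2 this remained so after TMM scaling. With all 6 libraries their limma adjusted p was 0.0853, 0.108 and 0.0694 in that order, and without NEC 1 it was 0.0149, 0.0402 and 0.0293 for Csrp1, Pgm5 and Synpo2, all lower. With TMM scaling as well none of the 3 passed (0.127, 0.268 and 0.1002).

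With all 6 libraries, Myocd and Mrvi1 were the smooth muscle members that passed as lower. Myocd, the gene of myocardin (chromosome 11, 65176561 to 65269989), was at 0.735, 1.83 and 2.28 FPKM in NEC 1, 2 and 3 and at 3.86, 4.15 and 3.54 in the controls. The groups did not overlap, and NEC 3 was at 59.3% of the control mean. Myocd fell by 0.94 on the log2(FPKM + 1) scale (SE 0.24, limma adjusted p = 0.0245), and by 0.71 with TMM scaling (0.0458). Without NEC 1 the change was -0.67 (limma adjusted p = 0.00748, and 0.0167 with TMM scaling). Leaving out NEC 2 or any 1 control ended the call, at adjusted p up to 0.0848.

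Mrvi1, also named Irag1, encodes a protein of the calcium store through which cyclic GMP-dependent kinase I quiets the IP3 receptor (chromosome 7, 110868266 to 110982461). It was at 0.887, 2.67 and 3.04 FPKM in NEC 1, 2 and 3 and at 4.97, 5.43 and 4.82 in the controls. The groups did not overlap, and NEC 3 was at 60.0% of the control mean. Mrvi1 fell by 0.999 on the log2 scale (SE 0.28, limma adjusted p = 0.0339). With TMM scaling the change was -0.75 and did not pass (0.0669), while without NEC 1 it passed on both scales (0.00523 and 0.0118). The call was also lost with smaller pseudocounts, without a filter, with quantile normalization, and without NEC 2 or any 1 control, at adjusted p up to 0.103.

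The other smooth muscle members were of low level. Kcnmb1, the beta subunit of the calcium-activated potassium channel, was at 0.324, 1.63 and 1.41 FPKM in NEC 1, 2 and 3 and at 1.45, 1.65 and 1.28 in the controls. Hspb6, a small heat shock protein phosphorylated during relaxation, was at 0.882, 1.89 and 1.52 against 1.80, 1.78 and 1.52 FPKM. For Kcnmb1, NEC 2 and 3 lay inside the control range and NEC 1 below it. For Hspb6, NEC 2 lay above all controls, NEC 3 just below the lowest control and NEC 1 below. Pcp4, a calmodulin-binding peptide, was at 0.0741, 0.759 and 1.18 against 1.40, 1.32 and 1.24 FPKM. Its mean over all libraries was just under 1 FPKM, so it was not tested, and its exons overlap those of Igsf5 on the same strand. Exons of Hspb6 overlap those of Gm38670 on the same strand and of Lin37 and Proser3 on the other strand. In all, 12 members have exons overlapping another gene on the other strand, among them Tagln, Smtn and Vcl. Reads of these genes may be mixed as well.

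**Figure D2:**
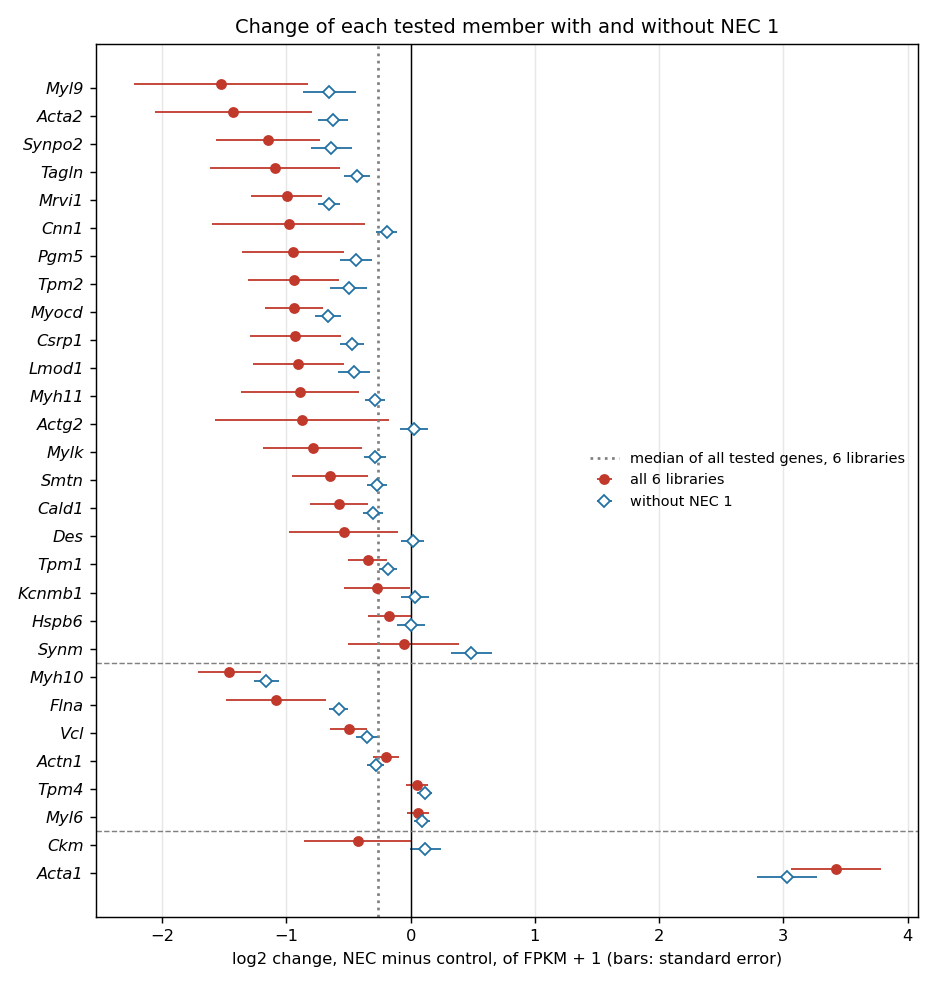
Log2 change between NEC and control of the 29 tested members, with standard errors, from all 6 libraries (red) and without NEC 1 (blue, open), ordered within smooth muscle, widely expressed and striated members. Leaving out NEC 1 moves most smooth muscle members toward 0 and shortens their bars, while Myh10 stays below -1 and Acta1 above 3.

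On the deposited scale, the 6 widely expressed members separated into those with every NEC library below every control and those with overlapping groups. Myh10, which encodes nonmuscle myosin heavy chain IIB (chromosome 11, 68691559 to 68816632), was at 0.760, 2.00 and 2.56 FPKM in NEC 1, 2 and 3 and at 6.28, 6.71 and 6.00 in the controls. Even the highest NEC value was 40.5% of the control mean. Myh10 fell by 1.46 on the log2 scale (SE 0.25, limma adjusted p = 0.0103) and passed as lower in all 16 alternative settings that tested it, at log2 changes from -1.997 to -0.96 and adjusted p from 0.00106 to 0.0491. The ratio of Myh11 to Myh10, which a common scaling of a library does not move, was 42.0, 59.8 and 50.0 in NEC 1, 2 and 3 and 25.3, 24.3 and 24.1 in the controls. Each NEC library was above each control (exact permutation test, two-sided, p = 0.1, the smallest possible, and 0.117 adjusted over 7 ratios).

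Flna, the actin crosslinker filamin A, was at 27.8, 78.0 and 85.5 FPKM in NEC 1, 2 and 3 and at 122, 128 and 117 in the controls. It lay below the controls in each NEC library on both scales, with a log2 change of -1.09 that did not pass with 6 libraries (limma adjusted p = 0.0711) and -0.58 that passed without NEC 1 (0.0051, and 0.0209 with TMM scaling). Vcl, the gene of vinculin, which links actin to adhesion sites, was at 20.7, 26.7 and 30.3 against 37.5, 38.6 and 33.9 FPKM. Vcl fell by 0.50 on the log2 scale (limma adjusted p = 0.0387), a call lost with TMM scaling (-0.16, adjusted p = 0.225). It was also lost without a filter, with the replicate number as a block (0.0681), and without NEC 2 or any 1 control.

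The other 3 widely expressed members differed little between the groups. Myl6, the essential light chain of smooth and nonmuscle myosin, was at 10.5, 11.3 and 11.3 FPKM in NEC 1, 2 and 3 and at 10.1, 10.9 and 10.7 in the controls. Tpm4, a tropomyosin of many cell types, was at 23.5, 26.6 and 26.9 against 24.7, 25.5 and 23.9 FPKM. Neither gene was low in NEC 1, unlike the smooth muscle members, and with TMM scaling both passed as higher, with log2 changes of 0.38 and 0.39 (limma adjusted p = 0.0203 and 0.0126), against 16.8% of all tested genes higher. All NEC libraries then lay above all controls in both, as in 27.9% of all tested genes. Actn1, a nonsarcomeric alpha-actinin, was at 28.7, 22.9 and 25.0 against 29.7, 30.2 and 28.1 FPKM. With all libraries it did not pass on either scale, except as lower with sample weights on the deposited scale. Without NEC 1 it passed as lower (log2 change -0.28, limma adjusted p = 0.0262) on the deposited scale only. The ratio of Tpm2 to Tpm4 was 0.225, 0.469 and 0.636 in NEC 1, 2 and 3 and 0.800, 0.911 and 0.850 in the controls, with no overlap (exact permutation p = 0.1, and 0.117 adjusted).

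**Figure D3:**
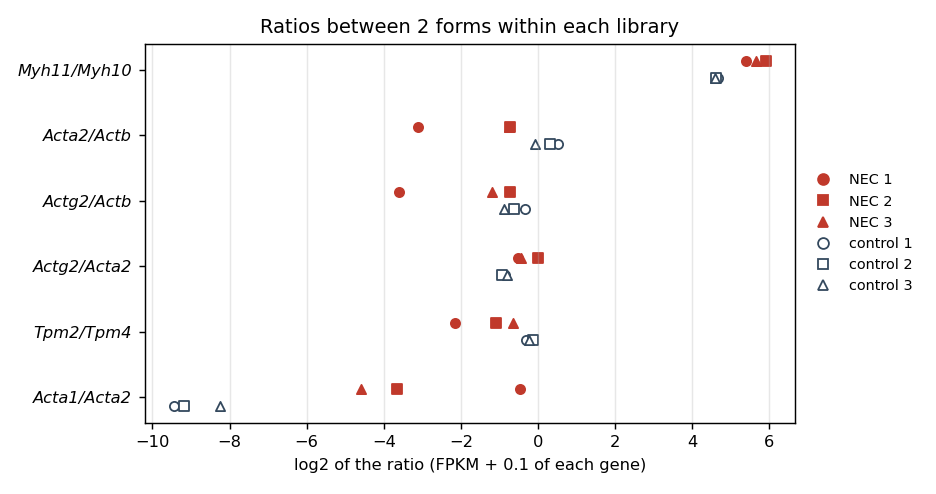
Log2 ratios between 2 genes within each library (each FPKM + 0.1), for NEC (filled red) and control (open). Myh11/Myh10, Actg2/Acta2 and Acta1/Acta2 are higher in each NEC library than in each control, Acta2/Actb and Tpm2/Tpm4 are lower, and Actg2/Actb overlaps.

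Among the striated members, Acta1 rose and the others did not. Acta1, the alpha actin of skeletal muscle (chromosome 8, 123891769 to 123894751), was at 27.8, 15.4 and 9.00 FPKM in NEC 1, 2 and 3 and at 0.375, 0.513 and 0.844 in the controls. The 3 NEC libraries were 48.2, 26.7 and 15.6 times the control mean, which at 0.577 FPKM is a low base for these folds. The highest was the library with the least of the smooth muscle actins. Acta1 rose by 3.42 on the log2(FPKM + 1) scale (SE 0.36, limma adjusted p = 0.00352), rank 13 from the top among 15806 tested genes. It met the filter of a mean of 1 FPKM only through the NEC libraries, where it is high. Without a filter its limma adjusted p was 0.0102. It passed as higher in all 17 alternative settings, with log2 changes from 3.03 to 4.82 and adjusted p from 0.000353 to 0.0253. In NEC 1 the ratio of Acta1 to Acta2 reached 0.725, against 0.0788 and 0.0415 in NEC 2 and 3 and 0.00145 to 0.00331 in the controls.

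The remaining 6 striated members showed no such rise. Actc1, the cardiac alpha actin, was at 0.219, 0.544 and 0.298 FPKM in NEC 1, 2 and 3 and at 0.237, 0.365 and 0.267 in the controls, with overlapping groups. Ckm, muscle creatine kinase, which buffers ATP, was at 0.438, 3.31 and 3.53 against 3.26, 3.47 and 2.54 FPKM. Ckm was low in NEC 1 alone, as were Des and Kcnmb1, and did not pass (log2 change -0.42, limma adjusted p = 0.462). Myl1, a light chain of fast skeletal muscle, was at 0.178, 0.397 and 0.322 against 0.654, 0.928 and 0.872 FPKM.

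Myh3, the embryonic skeletal myosin heavy chain, reached at most 0.207 FPKM, in control 2, and was listed at 0 in NEC 1. Tnnt3, troponin T of fast muscle, ranged from 0.0984 to 0.175 FPKM over all libraries. Tnnc2, troponin C of fast muscle, was listed at 0 in NEC 2, NEC 3, control 1 and control 2, and at 0.148 and 0.231 FPKM in NEC 1 and control 3. Of the 7 striated members, 2 had a mean of 1 FPKM or more and were tested, Ckm and, through its NEC libraries alone, Acta1. Without the filter, Myl1 passed as lower (log2 change -0.49, limma adjusted p = 0.0324), against 15.3% of 33583 genes lower and 3.17% higher, and Actc1, Myh3, Tnnt3 and Tnnc2 did not pass.

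**Figure D4:**
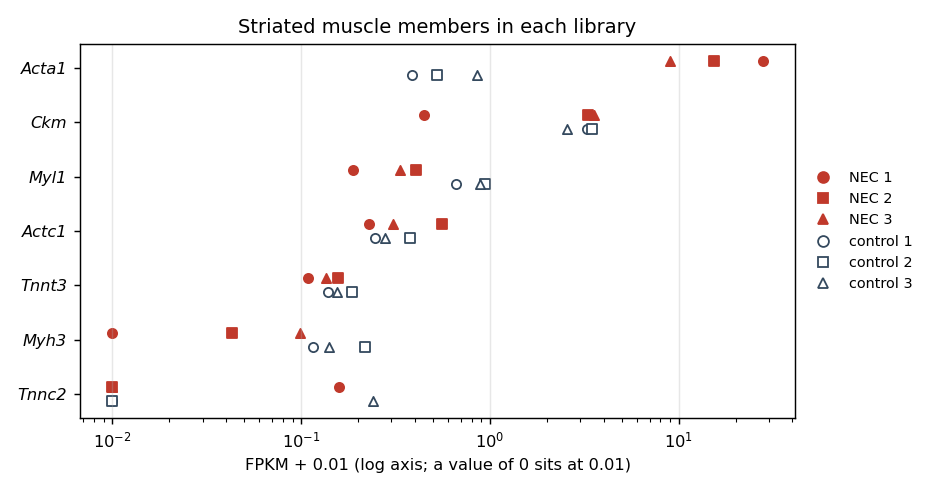
FPKM + 0.01 of the 7 striated members in each library, on a log axis. Acta1 is between 9.00 and 27.8 in the NEC libraries and under 1 in the controls, while no other striated member has all NEC libraries above all controls.

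A wider list of 50 further striated muscle genes was read beside Acta1. In every library 45 of them were below 1 FPKM. The 8 at 0 throughout were Myod1, Myog, Myf6 and Pax7, which specify skeletal muscle cells, and Chrna1, Mybph, Pvalb and Xirp2. Of the 5 tested, 2 passed as lower and 0 as higher, against 30.6% and 7.69% of all tested genes. Ckmt2, mitochondrial creatine kinase, went from 3.66, 4.07 and 3.70 FPKM in the controls to 0.239, 0.593 and 0.721 in NEC 1, 2 and 3, a log2 change of -1.68 (limma adjusted p = 0.00205). Eno3, the muscle enolase, fell by 0.37 on the log2 scale (limma adjusted p = 0.0399), a call lost with TMM scaling (0.318). Casq1, the calcium-binding protein calsequestrin 1, passed as higher only without NEC 1 (0.0306), at 0.284, 1.70 and 2.32 FPKM in NEC 1, 2 and 3 and 1.27, 0.992 and 0.805 in the controls. The summed level of the 50 genes was 20.3 to 22.5 FPKM in NEC and 22.3 to 25.6 in control, of which Tpm3, a tropomyosin also made outside muscle, held 9.92 to 14.5. Casq1 and Tpm3 were picked after their values were seen.

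Close paralogs share reads, which bears on the actins. By the longest open reading frames of the GENCODE transcripts, Acta1 is 85.4% identical to Acta2, 84.9% to Actg2, 86.2% to Actc1 and 84.8% to the cytoplasmic actin gene Actb. The longest run of identical bases was 77 between Acta1 and Actb, and 29 between Acta1 and each of Acta2, Actg2 and Actc1. Reads that match several actins may be split among them in a way not given in the sources used here. Actb, picked for these comparisons and not by the rule for named genes, was at 331, 326 and 370 FPKM in NEC 1, 2 and 3 and at 228, 288 and 302 in the controls, a log2 change of 0.33 that did not pass (limma adjusted p = 0.0989).

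The promoters of Acta1, Actc1, Acta2 and Myl9 are shown because SRF-type elements are a shared feature of these genes that the choice of members did not use. RefSeq windows of 300 bases on GRCm38.p6, from 250 before to 50 after the RefSeq start, were matched for 30 of the 35 members. Actg2, Myh11, Tagln, Myocd and Tnnt3 had no window, so they were not searched. The 250 bases before that start are printed, and all distances are counted from it. It differs from the GENCODE gene start used for the coordinates above. By GENCODE, all printed bases of Actc1 (114047282 to 114053548) and part of those of Acta2 and Myl9 lie inside the gene. The CArG box searched has CC, then 6 letters that are A or T, then GG. A relaxed form with 1 G or C among those 6 letters was searched as well. Both read the same on the 2 strands. Capitals mark either form, and each sequence is written 5′ to 3′ on the strand of its gene, which is the minus strand for the 3 actins and the plus strand for Myl9.
Acta1, chr8:123894776-123895025: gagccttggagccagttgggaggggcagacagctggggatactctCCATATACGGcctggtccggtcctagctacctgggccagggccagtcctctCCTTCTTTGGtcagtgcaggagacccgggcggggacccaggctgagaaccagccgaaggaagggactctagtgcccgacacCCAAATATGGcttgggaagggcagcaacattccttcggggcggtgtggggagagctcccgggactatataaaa
Actc1, chr2:114052876-114053125: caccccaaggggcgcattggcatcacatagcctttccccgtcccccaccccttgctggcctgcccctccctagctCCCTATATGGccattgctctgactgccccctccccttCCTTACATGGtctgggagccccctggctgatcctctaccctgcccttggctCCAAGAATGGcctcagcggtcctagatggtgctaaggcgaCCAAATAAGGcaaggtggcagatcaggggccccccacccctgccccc
Acta2, chr19:34255374-34255623: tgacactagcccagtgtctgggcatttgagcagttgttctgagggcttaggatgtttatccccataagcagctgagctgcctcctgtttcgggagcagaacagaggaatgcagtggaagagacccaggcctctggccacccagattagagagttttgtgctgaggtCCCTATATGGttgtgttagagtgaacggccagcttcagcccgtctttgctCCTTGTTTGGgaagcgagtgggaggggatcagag
Myl9, chr2:156775214-156775463: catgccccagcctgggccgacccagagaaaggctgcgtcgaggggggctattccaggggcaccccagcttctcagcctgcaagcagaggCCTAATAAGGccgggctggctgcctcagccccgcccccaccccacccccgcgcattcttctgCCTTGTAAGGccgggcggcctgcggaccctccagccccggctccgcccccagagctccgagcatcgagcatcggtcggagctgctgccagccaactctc

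The CArG box was found in 5 of the 30 members with a window, Acta1, Actc1, Myl9, Myl6 and Vcl, and in 1.81% of all 27025 genes with one. The relaxed form was found in 8 members, among them Acta1, Actc1, Acta2 and Myl9, and in 9.69% of all genes. In Acta1 the box starts 73 bases before the RefSeq start, and relaxed forms start 205 and 154 bases before it. Acta2 has relaxed forms 84 and 34 bases before its start and no exact box, and Actc1 has an exact box 47 bases before its start. So the RefSeq windows of Acta1, Actc1 and Acta2 all hold such elements, while Acta1 was higher in NEC, Actc1 was under 1 FPKM throughout and Acta2 was lower in each NEC library. Srf itself, picked after its values were seen, was at 3.27, 5.95 and 7.16 FPKM in NEC 1, 2 and 3 and at 8.10, 8.57 and 9.14 in the controls. Its log2 change of -0.62 did not pass with all libraries (limma adjusted p = 0.0755). Without NEC 1 Srf passed as lower, at -0.35 (limma adjusted p = 0.036), and with TMM scaling as well it did not (0.387). A match of letters is not evidence of binding.

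Other genes of smooth muscle contraction were taken from a list of 60. Of 56 tested, 23 passed as lower and 2 as higher, against 30.6% and 7.69% of all tested genes, with a median log2 change of -0.55 beside -0.26 for all tested genes. With TMM scaling 13 were lower and 7 higher, against 14.3% and 16.8% of genes. Itpr1, the IP3 receptor that releases stored calcium, fell from 8.85, 9.30 and 8.77 FPKM in the controls to 2.83, 4.73 and 4.74 in NEC 1, 2 and 3 (log2 change -0.99, limma adjusted p = 0.0101). Prkg1, cyclic GMP-dependent kinase I, was at 0.955, 1.73 and 2.27 against 4.40, 3.97 and 3.38 FPKM, and fell by 0.92 on the log2 scale (limma adjusted p = 0.0181). Mrvi1 encodes the protein that joins these 2. For each of the 3 genes every NEC library lay below every control, as it did for 47.3% of all tested genes, and Prkg1 was singled out after its values were seen.

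Foxf1, a transcription factor of gut mesenchyme, fell from 25.1, 25.3 and 25.3 FPKM in the controls to 9.42, 12.4 and 13.3 in NEC 1, 2 and 3 (log2 change -1.06, limma adjusted p = 0.00512). Itga8, an integrin of smooth muscle and other mesenchymal cells, fell by 1.24 and Cnn3, the calponin of nonmuscle cells, by 1.13 on the log2 scale. Gna11, a G protein subunit, passed as higher, by 0.37 on the log2 scale. Itpr1, Foxf1 and Cnn3 passed as lower in all the alternative settings that tested them, and Itga8 in all but 1, without control 2 (limma adjusted p = 0.0501). Gna11 kept its call with TMM scaling and lost it without a filter, with the replicate number as a block and without NEC 2, NEC 3 or any 1 control.

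Genes of the upstream steps of contraction included some that passed as lower and some that did not. Rhoa, the small GTPase that sustains contraction, was at 28.6, 31.3 and 28.2 FPKM in NEC 1, 2 and 3 and at 29.8, 29.7 and 28.6 in the controls, with overlapping groups. Its effector kinase genes Rock1 and Rock2 had log2 changes of 0.03 and 0.18 and did not pass. With TMM scaling Rhoa and Rock2 passed as higher, by 0.34 and 0.51 (limma adjusted p = 0.0435 and 0.0113). Atp2a2, the calcium pump of the store, was at 31.3, 42.9 and 43.8 against 44.4, 43.5 and 42.1 FPKM. Rhoa, Rock1, Rock2 and Atp2a2 were picked after their values were seen, and so were the upstream genes that passed as lower named next. Cacna1c, the pore of the L-type calcium channel, changed by -0.56 on the log2 scale (limma adjusted p = 0.0171), Arhgef12, an activator of Rhoa, by -0.54 (0.0138), and Tacr2, a tachykinin receptor, by -0.83 (0.0183). With TMM scaling Cacna1c and Tacr2 passed as lower and Arhgef12 did not.

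Markers of other cell types of the gut wall also tended to be lower in NEC, but their pattern over the NEC libraries varied by list. After TMM scaling the median fibroblast marker stood at 23.6%, 44.1% and 51.9% of its control mean in NEC 1, 2 and 3. The medians were 43.4%, 58.6% and 68.0% for neurons, 85.0%, 87.0% and 88.0% for endothelium and 22.3%, 66.3% and 95.4% for mesothelium. For the smooth muscle members they were 33.1%, 95.4% and 97.0%. All 8 fibroblast markers passed as lower, with a summed level of 121 to 352 FPKM in NEC, lowest in NEC 1, and 666 to 813 in control. Of 9 tested enteric neuron markers 7 were lower and 0 higher, summing to 39.5 to 55.9 FPKM in NEC against 75.1 to 82.3, and the markers of interstitial cells of Cajal and PDGFRA-positive cells had 4 of 6 lower (20 to 34.3 against 44.5 to 49.3). Pericyte markers had 5 of 6 lower (39.4 to 78.0 against 77.6 to 89.0 FPKM), endothelial markers 5 of 6 (30.04 to 38.0 against 53.4 to 58.5), and mesothelial markers 1 of 5 tested (2.71 to 10.1 against 10.97 to 13.0). No marker of these 6 lists passed as higher on the deposited scale, where 30.6% of all tested genes were lower and 7.69% higher. With TMM scaling the numbers lower were 6 of 8 for fibroblasts, 6 of 9 for neurons, 2 of 6 for Cajal and PDGFRA-positive cells, 2 of 6 for pericytes, 2 of 6 for endothelium and 1 of 5 for mesothelium. Among all tested genes 14.3% were then lower and 16.8% higher. Of the markers, 1 neuron marker, Ret, passed as higher.

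Epithelial markers did not fall. Of 8, 2 passed as higher, Vil1 and Krt20, and 0 as lower, against 7.69% and 30.6% of all tested genes. The summed level of the 8 was 1809, 1405 and 1317 FPKM in NEC 1, 2 and 3 and 1130.2 to 1219 in control. Epcam, found on epithelial cells at large and picked after its values were seen, was at 247, 206 and 240.1 FPKM in NEC against 247 to 251 in control. The library with the least smooth muscle RNA was thus also the one with the least fibroblast, neuron and mesothelial marker RNA and the most epithelial marker RNA. The part of tissue makeup in the muscle gene differences was not tested.

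**Figure D5:**
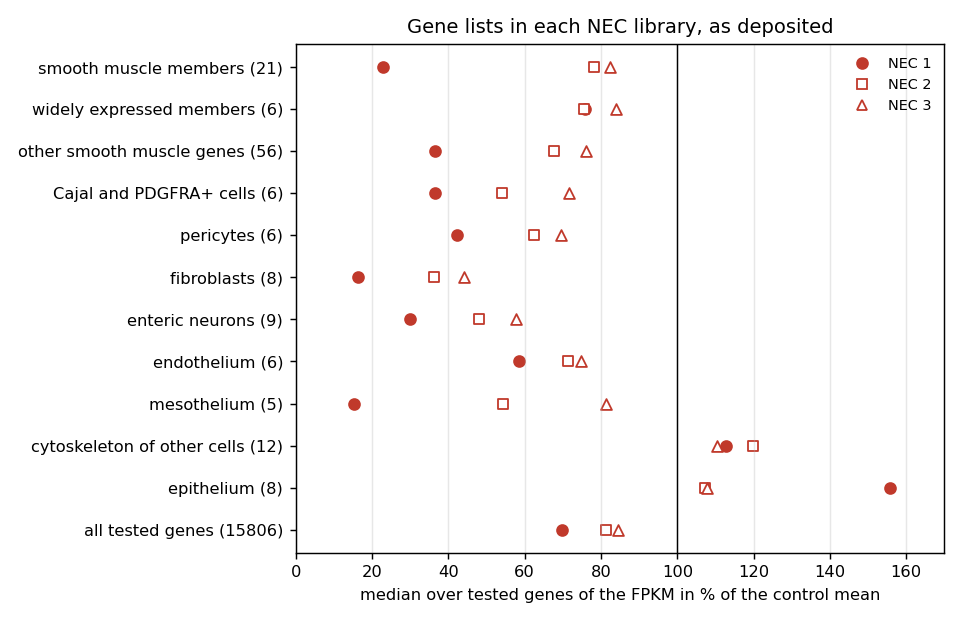
Median over the tested genes of each list (number in brackets) of the FPKM as a percentage of the control mean, for NEC 1 (filled), NEC 2 and NEC 3. Smooth muscle members are at 22.8%, 78.2% and 82.4%, fibroblast markers lie lower in NEC 2 and 3, and epithelial markers lie above 100%.

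Markers of other tissues were mostly near 0. Adipocyte-defining Adipoq, Plin1, Lep and Cfd were below 1 FPKM in every library, and so were the pancreatic genes Cpa1, Cela1, Cela2a, Pnlip, Prss2 and Amy2b, with Pnlip, Prss2 and Amy2b at 0 throughout. The other genes of these 2 lists were Cidec, a lipid droplet protein, which rose from 10.2 to 10.5 FPKM to 48.0, 39.6 and 34.5, Ctrb1, a chymotrypsinogen, which rose from 0 to 0.292 FPKM to 10.8, 4.45 and 1.34 in NEC 1, 2 and 3, and Fabp4, which completes the list. Fabp4 did not pass with all libraries and passed as lower without NEC 1 on the deposited scale only. Ctrb1 met the filter only through its NEC libraries, and its call was lost without NEC 2 or any 1 control. Leukocyte markers had 2 of 5 tested lower and 0 higher, and red cell markers 4 of 5 tested lower, against 30.6% of all tested genes lower and 7.69% higher. Of the 6 glial markers only Erbb3, which epithelial cells also make, was tested. Among 12 cytoskeletal genes of other cells, Myh14 and Pfn1 passed as higher, by 0.81 and 0.44 on the log2 scale, and 0 passed as lower, against 7.69% and 30.6% of all tested genes. With TMM scaling 6 of the 12 passed as higher, against 16.8%.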

How the data were processed

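RNA-seq of terminal ileum gave 1 deposited table, with 1 value per gene for each of 3 NEC and 3 control libraries. The submitters' processing notes list HISAT2, SAMtools 1.3.1, Cuffdiff and the mouse build mm10. Annotation and strand setting are not given in the sources used here. No unit is named in the table: since Cuffdiff is listed, the deposited values were taken to be FPKM. Column names starting with N were matched to the NEC samples by number. Symbols and coordinates came from GENCODE M21 on that build (55141 of 55487 identifiers matched, with all 35 members).

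The 15806 genes averaging 1 FPKM or more were fitted with limma 3.58.1 in R 4.3.3 on log2(FPKM + 1), with a mean-variance trend and no covariate beyond group. A gene was called where its Benjamini-Hochberg adjusted p over all tested genes was under 0.05. The added 1 shrinks the fold changes of low genes. Ratios between forms used FPKM + 0.1 and two-sided exact permutation tests, whose smallest p with 3 against 3 is 0.1. The 17 alternative settings covered pseudocounts, filters, scaling (TMM, unweighted, trimming 30% of ratios and 5% of levels; quantile; protein-coding genes), a replicate block, a fit without trend, sample weights, and leaving out single libraries. TMM scaling without NEC 1 was added after seeing the data. The members and lists were chosen with earlier results of these data known. Named genes were all members and, per other list, up to 4 called genes per direction with the smallest p; others, apart from marker list genes given by level, are marked in the text. Of the ratios and genes so chosen, 1 ratio and 1 gene are not reported here.

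On simulated data for the 15806 genes with 200 changed, the NEC and control test recovered 61% of changes of log2 1 and 89% of log2 2, with 3.23% false calls. The simulation gave each gene independent noise of equal spread in both groups, and changed only genes with a mean log2(FPKM + 1) above 2. It held no library that stood apart and no shift of a whole library. Its rates therefore need not hold for the calls above or for genes of low level. Plots were made with matplotlib 3.10.9.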

Additional observations from a re-analysis of the deposited data

How the results depend on the processing

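Of the tested members, Acta1 passed as higher and Myh10 as lower under every alternative that tested them, and no member called with all 6 libraries changed direction. Synm turned to 0.72 and passed as higher with TMM scaling and without NEC 1. Over all tested genes, the share lower was 30.6% with all 6 libraries, 14.3% with TMM scaling, 33.5% without NEC 1 and 15.8% with both. The share higher was 7.69%, 16.8%, 9.77% and 18.8% in that order. Without a filter, 15.3% were lower and 3.17% higher. For the other settings these shares are not given, so the counts below cannot be set against all tested genes there. The count of smooth muscle members lower, 2, became 1 with a pseudocount of 0.1 or 0.01, without a filter, with TMM scaling or with quantile normalization, 0 with a minimum mean of 5 FPKM (where Myocd and Mrvi1 are not tested), and 8 with sample weights. Leaving out 1 library each gave 0 to 13: 13 without NEC 1, 6 without NEC 3 and 0 without NEC 2 or any 1 control. The count higher, 0, became 1 with TMM scaling and without NEC 1. Widely expressed members lower, 2, became 1 without a filter, with a minimum mean of 5 FPKM (Myh10 not tested), with TMM scaling and with the replicate block, 4 with sample weights, and 1 to 4 without 1 library, and those higher, 0, became 2 with TMM scaling, with or without NEC 1. Striated members lower went from 0 to 1 without a filter. Other smooth muscle genes lower, 23, became 12 with a minimum mean of 5 FPKM, 13 with TMM scaling, 14 with quantile normalization, 36 with sample weights and 3 to 33 without 1 library (6, 3 and 11 without control 1, 2 and 3). Those higher, 2, became 1 without a filter, 7 with TMM scaling, 9 with TMM scaling and without NEC 1, 4 with protein-coding scaling or sample weights, 0 with the replicate block, and 0 to 4 without 1 library. Other striated genes lower, 2, became 0 with a minimum mean of 5 FPKM and 1 with TMM scaling (with or without NEC 1), quantile normalization, protein-coding scaling or the replicate block, and ranged from 1 to 2 without 1 library. Those higher, 0, became 1 with TMM scaling or sample weights, 2 with TMM scaling and without NEC 1, and 0 to 1 without 1 library. The Myh11/Myh10 log2 ratio difference of 1.03 was 0.57 with a pseudocount of 1. Apart from members no longer tested, the cause was not tested. Same-numbered libraries did not deviate together (correlations of -0.051, -0.007 and -0.074 for numbers 1, 2 and 3). With 3 libraries per group this cannot settle whether the numbers pair them. The replicate block ended the calls of Vcl among the members, of Gna11 among the other smooth muscle genes, of Eno3 among the striated ones and of Pfn1 among the cytoskeletal genes. Values of a few FPKM or less rest on few fragments. These include Myocd, Kcnmb1, Pcp4, the striated members other than Acta1, and Acta1 in the controls.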
